A study of Mus musculus with 128 samples.

Results

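The effect of diet on reproductive white fat (white adipose tissue, WAT) of SM/J mice was measured at 20 weeks of age. SM/J is an inbred mouse strain, and the series is about obese SM/J mice. Libraries were chosen by their labels for strain, diet, age and tissue, which gave 16 of the 128 libraries of the series. They were 4 females and 4 males on a high-fat diet and 4 females and 4 males on a low-fat diet, each library from a separate animal. The labels name no other allele or treatment, and the composition of the diets and the age at which they began are not given in the sources used here. Other libraries of the series hold brown fat, a 30-week age and the strain LG/J, of which the WAT libraries serve below for comparison.

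White fat stores triglyceride in adipocytes, releases it as fatty acids on adrenergic stimulation, takes up glucose in response to insulin and secretes hormones such as leptin and adiponectin. When the depot grows on a high-fat diet, macrophages commonly gather around adipocytes and take up their lipid through the lysosome. Enzymes of cholesterol synthesis are switched on together by the transcription factor SREBP2 when membranes of the endoplasmic reticulum are poor in sterol. The reproductive depot lies in the abdomen and is covered by mesothelium, a thin epithelium that expresses keratins, mesothelin and uroplakins.

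Each diet was deposited as a table of its own, filtered and scaled by itself, so a difference between the diets and a difference between the tables cannot be told apart. Both tables were put on a common scale over the 13715 genes they share, as CPM, the share of a library's normalised counts scaled to 1e+06, with TMM factors, which take out a difference in library scale but not one that touches single genes. Differences are high-fat minus low-fat on the log2(CPM + 0.1) scale with their standard error (SE), from limma with sex as covariate over 8 against 8 libraries. The adjusted p is Benjamini-Hochberg over all 13715 genes, and a gene is called where it is under 0.05. The fold of a lowly expressed gene is understated on this scale.

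Totals ran from 16458795 to 20695480 normalised counts per library, and the depth in reads is unknown. Within a diet and sex, pairs of libraries had a Pearson's r of 0.927 to 0.99 over genes, a description since genes are not replicates. Genes of adipocytes were abundant in every library: Plin1, the coat protein of the lipid droplet, lay at 626 CPM or more, while Ucp1, the uncoupling protein of brown fat, lay at 0.375 to 113 CPM. None of the 16 listed epididymis genes was among the genes measured. The low-fat female 699 and the low-fat male 542 stood apart from their groups. Library 699 had the lowest total, a TMM factor of 1.19 and a median r of 0.931 with its group, with 1723 CPM of Adipoq, the gene of adiponectin, where the other low-fat females had 4269 to 4439. On the first principal component, which held 34.8% of the variance, library 542 lay at 14.2. That was below the high-fat libraries (18.0 to 27.7) but above every other low-fat library (-5.48 or less). Library 542 had 1191 CPM of Adipoq where the other low-fat males had 2875 to 3018. Results are therefore also given without both libraries, a choice made after the data were seen. The choice rested in part on low Adipoq and, for 542, on its place near the high-fat libraries on the first principal component. Leaving out a low-fat library that resembles high-fat ones favours larger diet differences in genes of any kind. No result without both libraries is therefore independent of the choice, and least of all those for adipocyte genes.

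Diet was associated with a large part of the transcriptome. Of 13715 genes 2692 were called (19.6%), 1326 higher on the high-fat diet (9.67%) and 1366 lower (9.96%). At least 2-fold differences were called for 237 higher genes (1.73%) and 226 lower genes (1.65%). All 8 high-fat libraries lay above all 8 low-fat libraries for 174 genes (1.27%) and below them for 148 (1.08%). The median difference of all genes was -0.01. With the values as deposited, without common scaling, 2765 genes were called, of which 59.5% were higher in place of 49.3%, and the median was 0.03. Without libraries 699 and 542, 4170 genes were called, 2090 higher and 2080 lower. Counts of list members below stand beside 9.67% called higher and 9.96% lower over all genes. Counts without these libraries stand beside 2090 and 2080 of 13715. Those in females alone stand beside 1153 higher and 697 lower of 13715, and those in males alone beside 335 and 332.

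The 12 named genes with the largest rises were led by Itgad, which codes for an integrin alpha chain of macrophages (chr7:128154376-128223816, plus strand, GENCODE M21 on GRCm38, as all gene positions below). Itgad lay at 90.1 to 323 CPM (median 179) on the high-fat diet and at 2.86 to 146 CPM (median 13.4) on the low-fat diet, a difference of 3.80 ± 0.52 (adjusted p = 1.8e-04). The ranges overlapped only through library 542, which had 146 CPM where the other low-fat males had 16.6 to 25.4, and without 699 and 542 the difference was 4.14 ± 0.39 (adjusted p = 3.9e-06). The high-affinity choline transporter gene Slc5a7 (chr17:54273590-54299034, minus strand) rose 13.8-fold, and lay at 16.4 to 46.2 CPM (median 31.2) against 0.441 to 15.8 CPM (median 2.42). Tfr2, a transferrin receptor that senses iron load, rose by 3.75 ± 0.25 (adjusted p = 5.7e-07), with 24.1 to 91.6 CPM (median 44.1) against 1.33 to 9.18 CPM (median 3.79), and the difference was 3.55 in females and 3.96 in males. Ncan, a chondroitin sulfate proteoglycan best known from brain matrix, rose by 3.23 ± 0.32 (adjusted p = 1.5e-05), at 234 to 486 CPM (median 413) against 9.55 to 94.9 CPM (median 39.5).

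Of the other 8 large rises, Podnl1, a small leucine-rich matrix proteoglycan, rose by 3.21 ± 0.31, and Aldh1a7, an aldehyde dehydrogenase with close paralogs, by 3.12 ± 0.23. Ppp1r3a, the subunit that brings protein phosphatase 1 to glycogen, rose by 2.81 ± 0.34, the myosin heavy chain Myh15 by 2.80 ± 0.40 and the membrane protein gene Tmem56 by 2.65 ± 0.38. Olr1, a receptor for oxidised low-density lipoprotein, was 5.65-fold higher at 8.35 to 18.1 CPM (median 13.0) against 1.19 to 5.75 CPM (median 2.01). S100a8, a calcium-binding protein of neutrophils and other myeloid cells, was 5.58-fold higher and the ubiquitin-like gene Ubd 5.39-fold higher. The adjusted p of these 8 genes ran from 9.1e-07 to 2.9e-04. High-fat and low-fat libraries did not overlap for 10 of the 12 rises, Itgad and Tmem56 being the others. Such separation held for 1.27% of all genes, but the 12 were picked from these same libraries as the largest called rises, which favours it.

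Among the 12 largest falls, Mgl2, a galactose-type lectin of macrophages and dendritic cells, lay at 0.542 to 2.34 CPM (median 1.36) on the high-fat diet and at 2.62 to 18.5 CPM (median 9.24) on the low-fat diet, a difference of -2.87 ± 0.34 (adjusted p = 7.5e-05). Car3, carbonic anhydrase 3, an enzyme abundant in lean white fat (chr3:14863512-14872523, plus strand), fell 7.19-fold, to 1005 to 2457 CPM (median 1878) against 4179 to 20663 CPM (median 13659). No high-fat library reached the lowest low-fat library for either gene, although 699 (6781 CPM) and 542 (4179 CPM) had the least Car3 of their groups. Cyp2e1, a cytochrome P450 of fat and liver, fell by 2.53 ± 0.42 (adjusted p = 7.8e-04) without overlap. Orm3, an acute phase protein gene with close paralogs, fell by 2.45 ± 0.36, with ranges that overlapped. The remaining 8, Krt8, Upk3b, Lrp2, Pkhd1l1, Gpm6a, Krt19, Bnc1 and Cgn, had differences of -2.78 to -2.44, and all but Cgn overlapped between the diets. Of these 8, Krt8, Upk3b, Gpm6a, Krt19 and Bnc1 are on the list of mesothelial markers described below.

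**Figure D1:**
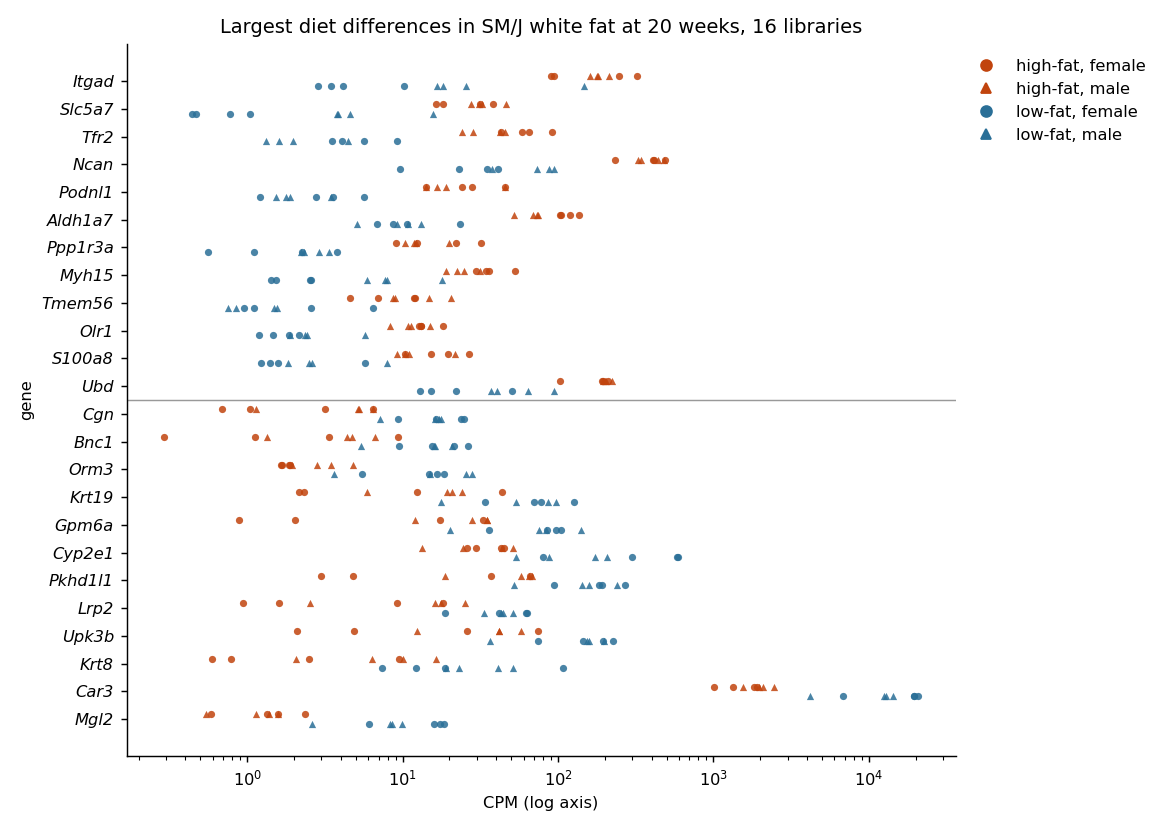
CPM of the 12 largest rises (above the line) and the 12 largest falls (below it) in SM/J white fat at 20 weeks, on a log axis; each point is 1 library, coloured by diet and shaped by sex. The diets are apart for 10 of the rises and 4 of the falls, genes picked from these same libraries for their large differences. The lone low-fat male among the high-fat values of Itgad is library 542.

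Enzymes of cholesterol synthesis were higher on the high-fat diet in both sexes. Of the 19 genes measured, 14 were called higher, 0 lower and 5 were not called, and their median difference was 0.76, where 9.67% of all genes were called higher and the median of all genes was -0.01. The median was 0.94 in females and 0.63 in males, and 12 genes were called higher in females alone and 9 in males alone. The summed level of the 19 genes was 793, 1359.7, 1389.7 and 1447 CPM in low-fat females and 2605, 2614, 2791 and 2819.8 in high-fat females. In males it was 1349, 1465, 1467 and 1831 on the low-fat diet and 2334, 2879, 2943 and 3359.9 on the high-fat diet, so the diets did not overlap in either sex. Without libraries 699 and 542, 14 were higher and 1 lower, with a median of 0.70.

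Insig1, which holds the SREBP escort protein back in the endoplasmic reticulum and is itself an SREBP target, showed the largest difference of the list. It lay at 635 to 927 CPM (median 815) on the high-fat diet and at 92.5 to 299 CPM (median 214) on the low-fat diet, a rise of 1.97 ± 0.17 (adjusted p = 8.7e-06), 3.91-fold, with no overlap. Hmgcs1, which makes HMG-CoA at the start of the pathway, rose by 0.97 ± 0.15 (adjusted p = 4.4e-04), with 792 to 1336 CPM (median 924) against 258 to 742 CPM (median 513). The mevalonate and isoprenoid steps rose at Pmvk (0.76 ± 0.19), Mvd (1.05 ± 0.18), Idi1 (0.86 ± 0.15) and Fdps (1.05 ± 0.20), but Mvk was not called at 0.23 ± 0.12. Fdft1, which commits the pathway to squalene, was at -0.20 ± 0.15 and was not called either. Downstream, Sqle rose by 0.52 ± 0.09, Lss, which closes the sterol ring, by 1.25 ± 0.19, Cyp51 by 0.86 ± 0.08, Msmo1 by 0.79 ± 0.10, Sc5d by 0.57 ± 0.13 and Dhcr7, the last step to cholesterol, by 1.05 ± 0.15. Srebf2, the gene of SREBP2 itself, was at -0.12 ± 0.13 and not called. For 9 of the 19 genes the high-fat libraries lay wholly above the low-fat libraries, where this held for 1.27% of all genes.

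SREBP proteins bind sterol regulatory elements, commonly next to CCAAT boxes, which the factor NF-Y binds, so the promoter windows of these genes were searched on both strands for TCACNCCAC, where N is any base, and for CCAAT. RefSeq windows of 300 bases, from 250 before to 50 after the start site, on GRCm38.p6 were matched for 12 of the 19 genes, 10 of them called higher. CCAAT or its reverse complement ATTGG was present in a window of all 12, also of the uncalled Mvk and Srebf2, where 41.1% of all 27025 genes with windows held it. TCACNCCAC was present in 1 of the 12 (8.33%) and in 1.44% of all genes. A match describes letters in the window and not a bound site. Shown 5′ to 3′ are the windows of the 3 largest rises among the matched genes and of Hmgcs1, the holder of the TCACNCCAC match, with the matches to either motif in capitals: Insig1 at chr5:28071162-28071461 (plus strand), Lss at chr10:76531355-76531654 (plus strand), Mvd at chr8:122443373-122443672 (minus strand) and Hmgcs1 at chr13:119690101-119690400 (plus strand).
Insig1: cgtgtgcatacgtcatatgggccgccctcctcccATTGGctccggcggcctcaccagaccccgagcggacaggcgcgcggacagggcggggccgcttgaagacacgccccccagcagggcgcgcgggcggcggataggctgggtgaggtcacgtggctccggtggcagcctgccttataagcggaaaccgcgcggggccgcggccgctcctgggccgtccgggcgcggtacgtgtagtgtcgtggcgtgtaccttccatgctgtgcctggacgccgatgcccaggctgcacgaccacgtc
Lss: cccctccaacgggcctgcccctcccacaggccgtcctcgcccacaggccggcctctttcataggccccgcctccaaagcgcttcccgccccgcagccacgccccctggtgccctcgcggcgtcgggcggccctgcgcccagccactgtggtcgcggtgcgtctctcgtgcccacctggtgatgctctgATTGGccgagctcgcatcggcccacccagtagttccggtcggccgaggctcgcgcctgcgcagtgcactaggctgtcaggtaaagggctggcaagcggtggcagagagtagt
Mvd: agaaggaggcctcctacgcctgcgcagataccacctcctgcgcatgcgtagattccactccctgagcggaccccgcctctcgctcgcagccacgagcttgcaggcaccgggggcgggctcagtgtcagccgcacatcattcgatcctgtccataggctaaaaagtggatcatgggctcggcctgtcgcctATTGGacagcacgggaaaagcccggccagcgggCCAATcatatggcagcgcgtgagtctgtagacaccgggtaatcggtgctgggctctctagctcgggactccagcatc
Hmgcs1: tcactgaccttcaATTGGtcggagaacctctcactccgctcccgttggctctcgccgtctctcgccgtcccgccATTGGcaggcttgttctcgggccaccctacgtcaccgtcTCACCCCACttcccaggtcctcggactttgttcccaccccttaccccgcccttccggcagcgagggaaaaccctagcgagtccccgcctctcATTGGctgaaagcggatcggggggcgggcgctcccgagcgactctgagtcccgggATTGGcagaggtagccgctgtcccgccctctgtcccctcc

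**Figure D2:**
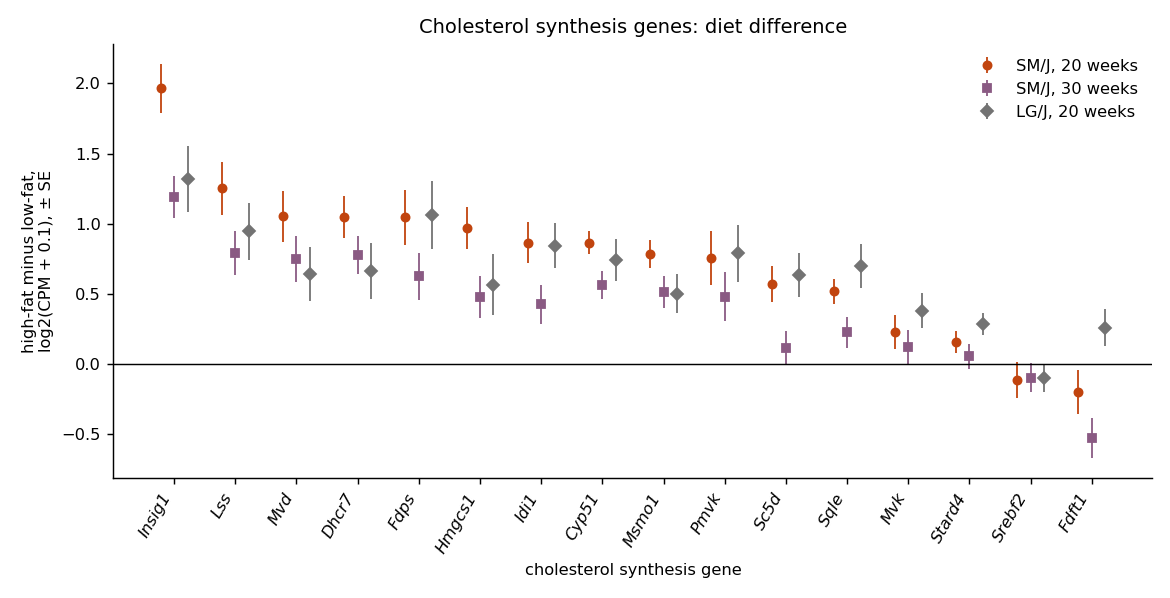
High-fat minus low-fat difference, log2(CPM + 0.1) ± SE, of 16 of the 19 cholesterol synthesis genes in SM/J white fat at 20 and 30 weeks and in LG/J white fat at 20 weeks. At 20 weeks Insig1 lies highest at 1.97, and the differences at 30 weeks lie below those at 20 weeks for all genes shown but Srebf2.

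Among hormones and marker genes of the white adipocyte, more were lower than higher on the high-fat diet. Of 17 measured, 1 was called higher and 6 lower, with a median of -0.29, and without libraries 699 and 542 the counts were 1 higher and 11 lower with a median of -0.53. Leptin, the hormone that reports fat mass, is coded by Lep, the gene called higher, which lay at 3885 to 5219 CPM (median 4269) on the high-fat diet and at 1686 to 4778 CPM (median 3332) on the low-fat diet, a rise of 0.57 ± 0.18 (adjusted p = 0.037). That call was lost when any of 10 of the 16 libraries was left out. Adipoq fell by 1.06 ± 0.25 (adjusted p = 0.0085), to 1010.0 to 1754 CPM (median 1431) against 1191 to 4439 CPM (median 2979.6), and the ranges overlapped through libraries 699 and 542, without which the difference was -1.39 ± 0.16 (adjusted p = 2.6e-05). These libraries were set apart partly for low Adipoq, so a larger fall without them was fixed in advance and adds no support. Cfd, the complement protease adipsin, fell 3.83-fold, to 289.7 to 582 CPM (median 423) against 314 to 4389 CPM (median 1675). Agt, the angiotensin precursor, fell by 2.43 ± 0.36 (adjusted p = 3.5e-04) without overlap, and Nnat, a small membrane proteolipid, fell by 1.67 ± 0.28 (adjusted p = 8.3e-04). Retn, the gene of resistin, was at -0.91 ± 0.34 (adjusted p = 0.067) and became called without library 699, at -1.10 ± 0.31 (adjusted p = 0.018), or without 542, at -1.17 ± 0.27 (adjusted p = 0.0061). Pparg, the master regulator of adipocytes, was not called at 0.26 ± 0.18, nor were Plin1 at -0.26 ± 0.19 and Fabp4, the fatty acid binding protein of adipocytes, at 0.04 ± 0.25. In bulk tissue, fewer cells of a type and less RNA per cell cannot be told apart.

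Genes of insulin signalling that were called were mostly lower on the high-fat diet. Of 18 measured, 1 rose and 5 fell, with a median of -0.09, and 2 rose and 9 fell without libraries 699 and 542. Slc2a4, the insulin-regulated glucose transporter GLUT4, fell by 1.03 ± 0.23 (adjusted p = 0.0062), to 48.2 to 101 CPM (median 76.2) against 77.2 to 250.0 CPM (median 158). Of the insulin receptor substrates, Irs1 fell by 1.02 ± 0.18 (adjusted p = 0.0012) and Irs2 fell by 0.91 ± 0.16 (adjusted p = 0.0011). Foxo1, a transcription factor held out of the nucleus by insulin, fell by 0.49 ± 0.13. Grb10, which like Grb14 is an inhibitory adaptor of the receptor, fell by 0.39 ± 0.09. Grb14, an adaptor that inhibits the insulin receptor, rose by 0.90 ± 0.13 (adjusted p = 2.5e-04), at 13.3 to 34.5 CPM (median 24.3) against 9.73 to 19.6 CPM (median 12.9). In glycolysis 1 of 17 genes rose, the phosphofructokinase gene Pfkl at 0.67 ± 0.18, and 3 fell, with the lactate dehydrogenase gene Ldhb at -0.97 ± 0.15 (adjusted p = 4.0e-04).

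Of 20 genes of the lipid droplet and lipolysis, 3 rose and 3 fell, with a median of 0.03, and 5 rose and 7 fell without 699 and 542. Over all genes 9.67% were called higher and 9.96% lower. Plin5, a droplet protein of oxidative tissues, lay at 56.3 to 106 CPM (median 75.5) against 9.53 to 31.3 CPM (median 25.2), with no overlap, a rise of 1.78 ± 0.21 (adjusted p = 6.5e-05) or 3.44-fold. Plin2, which coats small droplets of many cells including macrophages, rose by 1.12 ± 0.24 (adjusted p = 0.0039). Its difference was 1.87 in females and 0.38 in males (adjusted p = 0.015 between the sexes). Adrb3, the adrenergic receptor that starts lipolysis in mouse fat, fell by 1.5 ± 0.31 (adjusted p = 0.0032), to 84.5 to 249.7 CPM (median 186) against 209 to 739 CPM (median 629), and Adrb1 fell by 0.89 ± 0.23 (adjusted p = 0.014). The third fall was the droplet protein Plin4, at -0.58 ± 0.19 (adjusted p = 0.043), and the third rise Hilpda, an inhibitor of lipolysis, at 0.47 ± 0.15 (adjusted p = 0.041), calls lost when any of 12 and any of 9 of the 16 libraries was left out. The lipases were not called, with Pnpla2 at -0.49 ± 0.22 and Lipe at -0.44 ± 0.18.

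In fatty acid and triglyceride synthesis 2 of 23 genes rose and 4 fell, against 2 and 11 without 699 and 542. The share that rose was near the 9.67% of all genes called higher, and 9.96% of all genes were called lower. Scd2, a fatty acid desaturase, rose by 1.13 ± 0.17 (adjusted p = 4.0e-04) and Agpat2, an acyltransferase of triglyceride synthesis, by 1.00 ± 0.22 (adjusted p = 0.0051), both without overlap. Pck1, which supplies glycerol for triglyceride, fell by 1.35 ± 0.28 (adjusted p = 0.0033), and Thrsp, a lipogenic regulator, fell by 1.36 ± 0.34 (adjusted p = 0.011). Fasn, fatty acid synthase, was not called at -0.32 ± 0.35, with 3587 to 7193 CPM (median 4996) on the high-fat and 2026 to 15489 CPM (median 6595) on the low-fat diet. It was called at -0.76 ± 0.23 (adjusted p = 0.021) without 699 and 542. Scd1, the main stearoyl-CoA desaturase of fat, was at 0.46 ± 0.42 and Acly, which makes cytosolic acetyl-CoA, at -0.24 ± 0.28, neither called.

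Of 19 genes of fatty acid oxidation 7 rose and 0 fell (median 0.24, and 6 rose without 699 and 542). In females alone 1 rose and 0 fell (median 0.34), and in males alone 3 and 0 (median 0.22). Calls of Hadha, Hadhb and Slc25a20 were lost on leaving out any of 14, any of 5 and any of 3 of the 16 libraries. Acadm, the medium-chain dehydrogenase, lay at 445 to 638 CPM (median 502) against 218 to 463 CPM (median 406), a rise of 0.46 ± 0.13 (adjusted p = 0.021). Of 34 genes of the respiratory chain 1 was called, Cox8b, a subunit isoform of brown fat and muscle, at 1.04 ± 0.29 (adjusted p = 0.018), and the median was -0.08. Without 699 and 542, 1 rose and 8 fell, with a median of -0.26. Of 17 genes of the citric acid cycle 0 were called by limma and 1 had an unadjusted p under 0.05, while 6 fell without those libraries. Of 19 genes of branched-chain amino acid breakdown 0 rose and 4 fell with a median of -0.18, and 12 fell without 699 and 542. Ivd, the dehydrogenase of the leucine pathway, fell by 0.47 ± 0.14 (adjusted p = 0.027), a call lost when any of 6 of the 16 libraries was left out.

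Of 13 brown-fat marker genes measured, 4 rose, among them Otop1, a proton channel gene, by 2.34 ± 0.29 (adjusted p = 9.6e-05), and Elovl3, a fatty acid elongase, by 1.97 ± 0.32 (adjusted p = 5.8e-04), and 1 fell, the potassium channel gene Kcnk3, at -0.51 ± 0.15, a call lost when either of 2 libraries was left out. The counts were 6 and 2 without 699 and 542. In females alone 2 rose and 0 fell (median -0.01), and in males alone 6 and 0 (median 0.93). Otop1 lay at 25.1 to 52.7 CPM (median 30.9) on the high-fat and at 3.66 to 22.4 CPM (median 6.26) on the low-fat diet. Ucp1 was not called at 2.07 ± 0.74 (adjusted p = 0.058), with 4.70 to 113 CPM (median 19.8) against 0.375 to 57.9 CPM (median 3.24), and leaving out any of 3 libraries, the high-fat females 292 or 864 or the low-fat female 761, made it called, at 2.33 to 2.51. In males alone Ucp1 was called at 3.40 ± 0.70 (adjusted p = 0.026), with 4.70, 19.5, 20.0 and 48.6 CPM on the high-fat and 0.375, 1.92, 2.49 and 2.93 on the low-fat diet, and in females alone it was at 0.74 ± 1.00 (adjusted p = 0.68), while the difference between the sexes was not called (adjusted p = 0.37). Cidea, a droplet protein of brown fat, was at 0.49 ± 0.46 and not called.

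Macrophage genes were higher on the high-fat diet, and the difference was larger in females than in males. Of 22 markers 12 rose and 1 fell (median 0.76), and 14 rose and 2 fell without 699 and 542 (median 0.78). The median difference was 1.46 in females and 0.06 in males. The difference between the sexes was itself called for 16 of the 22, where 3.3% of all genes were called for it. The summed level of the markers was 1829, 2268, 2545 and 3368 CPM in low-fat females and 5479.6, 6255, 6519 and 7082 in high-fat females, with no overlap. In males it was 4726, 6025, 6294 and 7602 on the low-fat diet and 4994, 5807, 5931 and 6766 on the high-fat diet, so the males of both diets overlapped, and the lowest low-fat male lay above every low-fat female.

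Adgre1, the gene of the macrophage marker F4/80, shows the pattern. Low-fat females had 61.1, 62.9, 69.6 and 118 CPM and high-fat females 389, 398, 426 and 486, while low-fat males had 193, 231, 275 and 451 and high-fat males 285, 343, 381 and 398. The highest low-fat male was 542. Over both sexes Adgre1 rose by 1.42 ± 0.31 (adjusted p = 0.0044), and the difference in females was larger than in males by 2.14 ± 0.33 (adjusted p = 0.0044). C1qa and C1qb, subunits of the first complement component made by tissue macrophages, rose by 1.06 ± 0.18 and 1.32 ± 0.20 with no overlap between the diets, and Cd68, an endosomal marker, by 1.11 ± 0.31. Msr1, a scavenger receptor, rose by 1.44 ± 0.32 and Mrc1, a mannose receptor of resident macrophages, by 0.69 ± 0.15. Csf1r, the receptor for the macrophage growth factor, was not called at 0.28 ± 0.19, nor was the lysozyme gene Lyz2 at 0.49 ± 0.23. The member that fell was Emilin2, a secreted matrix protein, at -0.81 ± 0.15.

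Lipid-associated macrophages are the lipid-laden cells that surround dying adipocytes and need the receptor TREM2. Of 24 of their marker genes 11 rose and 0 fell, with 16 and 1 without 699 and 542, and the median difference was 1.32 in females and 0.03 in males. Trem2 lay at 26, 30.6, 49.5 and 63.3 CPM in low-fat and 142, 204, 209 and 227 in high-fat females, and at 116, 135, 171 and 224 in low-fat and 157, 183, 218 and 221 in high-fat males. Low-fat females were thus the group with little Trem2, and its overall rise was 1.29 ± 0.30 (adjusted p = 0.0069). Atp6v0d2, a proton pump subunit of macrophages and osteoclasts, rose by 1.31 ± 0.36 (adjusted p = 0.017), at 2.58 in females and 0.03 in males. Tyrobp, the signalling partner of TREM2, rose by 1.15 ± 0.24, Spp1, osteopontin, by 1.26 ± 0.34 and the protease gene Ctsk by 1.07 ± 0.18. Itgax, the gene of CD11c, was not called over both sexes at 0.76 ± 0.33, with 1.89 in females and -0.37 in males (adjusted p of that difference 0.0046). It was called at 0.95 ± 0.30 (adjusted p = 0.033) without the low-fat male 542, which had 213 CPM, the highest value of all 16.

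**Figure D3:**
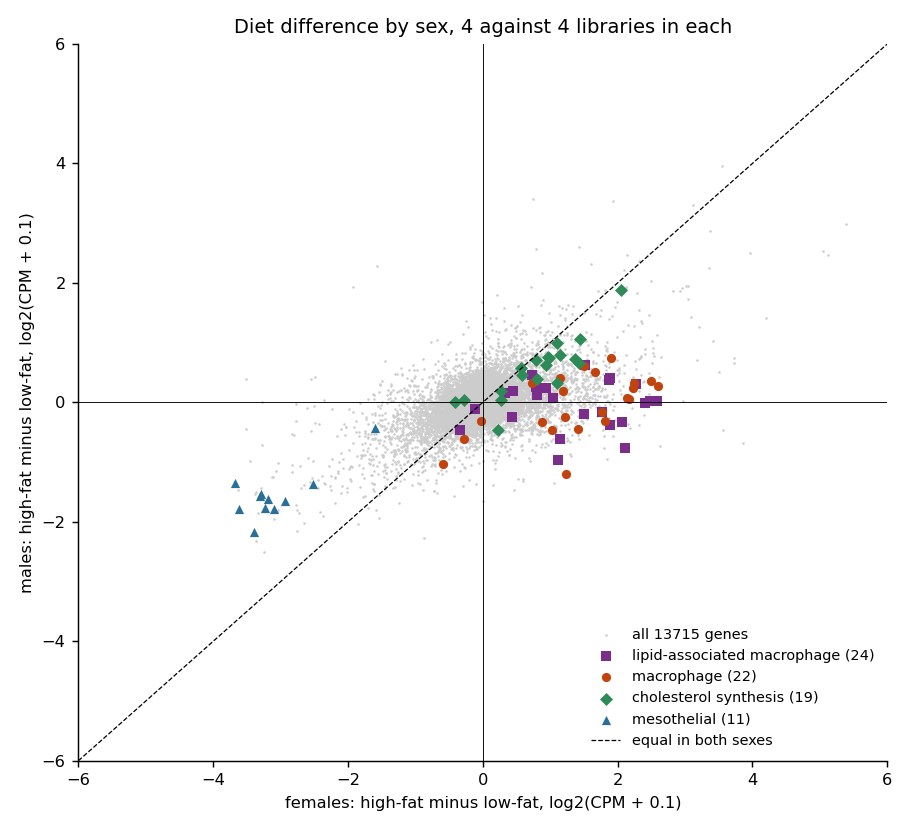
High-fat minus low-fat difference, log2(CPM + 0.1), in females (horizontal axis) against males (vertical axis), 4 against 4 libraries in each sex; grey points are all 13715 genes and coloured points the members of 4 lists. Macrophage genes lie to the right near the horizontal axis (medians 1.46 in females and 0.06 in males), cholesterol synthesis genes lie nearer the diagonal, and mesothelial genes lie low in both sexes.

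Genes of the lysosome, which degrades engulfed lipid, also differed more in females. The list shares Cd68 and Ctss with the macrophage list, and Cd63, Ctsd, Ctsl and Lipa with the lipid-associated macrophage list. Both macrophage lists hold Lgals3, so the counts of these lists are not separate findings. Of 34 measured 14 rose and 0 fell, against 19 and 0 without 699 and 542, with a median of 0.80 in females and -0.02 in males, and 13 were called for the difference between the sexes. Npc2, which carries cholesterol out of the lysosome, rose by 0.91 ± 0.15 (adjusted p = 6.4e-04) with no overlap, at 965 to 1644 CPM (median 1352) against 364 to 917 CPM (median 821), and its difference was 1.04 in females and 0.77 in males. Lysosomal genes are known targets of the factor TFEB, whose element holds TCACGTGA. This palindrome was present in the RefSeq window of 5 of 24 matched members (20.8%), where 1.12% of all genes had it, but in only 1 of the 8 that were called higher. The holders were Atp6v1a, called at 0.49 ± 0.14, and the uncalled Atp6v0d1 (0.12 ± 0.09), Ctsa (0.45 ± 0.16, in which it occurs at 2 places), Ctsd (0.46 ± 0.17) and Mcoln1 (-0.06 ± 0.10). The matches are shown 5′ to 3′ in capitals with 10 bases on each side, from GRCm38.p6, to set the called gene beside the others: Atp6v0d1 at chr8:105566051-105566078 (minus strand), Atp6v1a at chr16:44139374-44139401 (minus strand), Ctsa at chr2:164833750-164833777 (plus strand), Ctsa at chr2:164833767-164833794 (plus strand), Ctsd at chr7:142387909-142387936 (minus strand), Mcoln1 at chr8:3500463-3500490 (plus strand).
Atp6v0d1: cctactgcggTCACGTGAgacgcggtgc
Atp6v1a: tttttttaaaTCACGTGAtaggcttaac
Ctsa: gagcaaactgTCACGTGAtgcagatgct
Ctsa: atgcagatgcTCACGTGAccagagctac
Ctsd: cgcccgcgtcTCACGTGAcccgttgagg
Mcoln1: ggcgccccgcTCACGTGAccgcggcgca

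Of 30 listed cytokine and chemokine genes, 5 were kept in the high-fat table only and 0 in the low-fat table only. Those 5, with Ccl3, Ccl4 and Il10, and genes in neither table, with Il1b and Il6, could not be tested. Of the 21 measured 7 rose and 0 fell, with 8 and 1 without 699 and 542. In females alone 7 rose and 1 fell (median 0.49), and in males alone 1 and 1 (median 0.12). The difference between the sexes was called for 3 of the 21. Ccl2, the main attractant of monocytes, was called at 1.12 ± 0.35 (adjusted p = 0.035) and lay at 13.1 to 34.3 CPM (median 23.6) on the high-fat and 2.22 to 34.8 CPM (median 16.6) on the low-fat diet. Tnf was called at 0.75 ± 0.25 (adjusted p = 0.042), at 2.19 to 5.06 CPM (median 3.13) against 0.921 to 4.78 CPM (median 1.63). These calls were lost when any of 7 and any of 12 of the 16 libraries was left out, for Ccl2 among them 699, at 0.99 ± 0.36 (adjusted p = 0.053). Ccl9, a chemokine of myeloid cells, rose by 0.88 ± 0.23 (adjusted p = 0.014) and Cxcl16, which also acts as a scavenger receptor, by 0.66 ± 0.17 (adjusted p = 0.011). Class II antigen presentation had 1 called gene of 12, the co-stimulatory Cd86, at 1.05 ± 0.14 (adjusted p = 1.2e-04) with no overlap, and 4 rose without 699 and 542. In females alone 9 rose and 0 fell (median 0.96), and in males alone 1 and 0 (median -0.05). The difference between the sexes was itself called for 1 of the 12. In the interferon response 2 of 21 genes rose, with Rsad2, an antiviral enzyme, at 0.94 ± 0.19, and 0 fell, a share near the 9.67% of all genes called higher, with 3 and 2 without 699 and 542.

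Of 16 acute phase and complement genes 8 rose and 1 fell, and 7 and 3 without 699 and 542. In females alone 3 rose and 1 fell (median 0.34), and in males alone 5 and 0 (median 0.47). The difference between the sexes was called for 2 of the 16. Hp, the haemoglobin scavenger haptoglobin, lay at 4037 to 6876 CPM (median 4926) on the high-fat and 727 to 2611 CPM (median 1815) on the low-fat diet, a rise of 1.77 ± 0.26 (adjusted p = 2.9e-04) or 3.40-fold, with no overlap. Saa3, a serum amyloid A made in fat, rose by 1.94 ± 0.27 (adjusted p = 2.3e-04), at 51.8 to 107 CPM (median 62.2) against 10.1 to 37.8 CPM (median 16), again without overlap. Lcn2, a protein that withholds iron from bacteria, rose by 2.19 ± 0.51 (adjusted p = 0.0066). Its values were 0.716, 0.824, 2.97 and 4.96 CPM in low-fat and 19.2, 21.9, 22.1 and 37.5 in high-fat females, and 7.41, 10.2, 11.0 and 21.1 in low-fat and 13.0, 13.5, 23.5 and 26.6 in high-fat males, so the diets were apart in females and overlapped in males. The metallothioneins Mt1 and Mt2 rose by 1.00 ± 0.29 and 1.06 ± 0.30, and complement C2 fell by 0.69 ± 0.20.

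Of 28 cell cycle genes 20 rose and 0 fell, with a median of 0.70, where 9.67% of all genes were called higher, and 26 rose without 699 and 542. All 28 differences were positive over both sexes. In females alone 19 rose and 0 fell (median 1.08), and in males alone 3 and 0 (median 0.34). By limma's interaction test, 1 gene was called for the difference between the sexes. Rrm2, which makes the precursors of DNA, lay at 12.9 to 18.3 CPM (median 14.7) against 3.83 to 11.3 CPM (median 6.90) with no overlap, a rise of 1.13 ± 0.18 (adjusted p = 4.4e-04). Birc5, the mitotic regulator survivin, rose by 0.99 ± 0.18 (adjusted p = 0.0015), also with no overlap, and Mki67, the standard marker of dividing cells, by 0.81 ± 0.21 (adjusted p = 0.014), at 60.4 to 111 CPM (median 81.2) against 23.0 to 86.1 CPM (median 45.7). Pcna, the sliding clamp of DNA replication, rose by 0.75 ± 0.12 (adjusted p = 7.8e-04). Bulk RNA does not say which cells the transcripts came from.

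Markers of the mesothelium were lower on the high-fat diet throughout. All 11 of 11 measured fell, with a median of -2.44, where 9.96% of all genes were called lower, and 11 fell without 699 and 542 (median -2.62). In females alone 10 were called, and in males alone 1, with medians of -3.23 and -1.61. Over all genes 697 were called lower in females alone and 332 in males alone. By limma's interaction test, 0 of the 11 markers were called for a difference between the sexes. Their summed level was 273, 684, 717 and 797 CPM in low-fat females and 24.6, 29.5, 118 and 288 in high-fat females, and 167, 537, 616 and 809 in low-fat males and 64.2, 197, 209 and 223 in high-fat males. The low-fat males were above the high-fat males except 542, and in females the ranges overlapped. Upk3b, a uroplakin of mesothelium, lay at 2.08 to 74.8 CPM (median 33.6) on the high-fat and 36.3 to 227 CPM (median 156) on the low-fat diet, a difference of -2.70 ± 0.64 (adjusted p = 0.0077). Msln, mesothelin, differed by -2.40 ± 0.65 (adjusted p = 0.016) and the keratins Krt18 and Krt19 by -2.44 ± 0.56 and -2.50 ± 0.59. Krt8 reached 107 CPM in library 699, where the other low-fat females had 7.37 to 18.9. Wt1, a transcription factor of mesothelium and progenitors, differed least, by -1.01 ± 0.27 (adjusted p = 0.015). The share of mesothelium in a dissected piece was not measured, and its part in other falls was not tested.

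**Figure D4:**
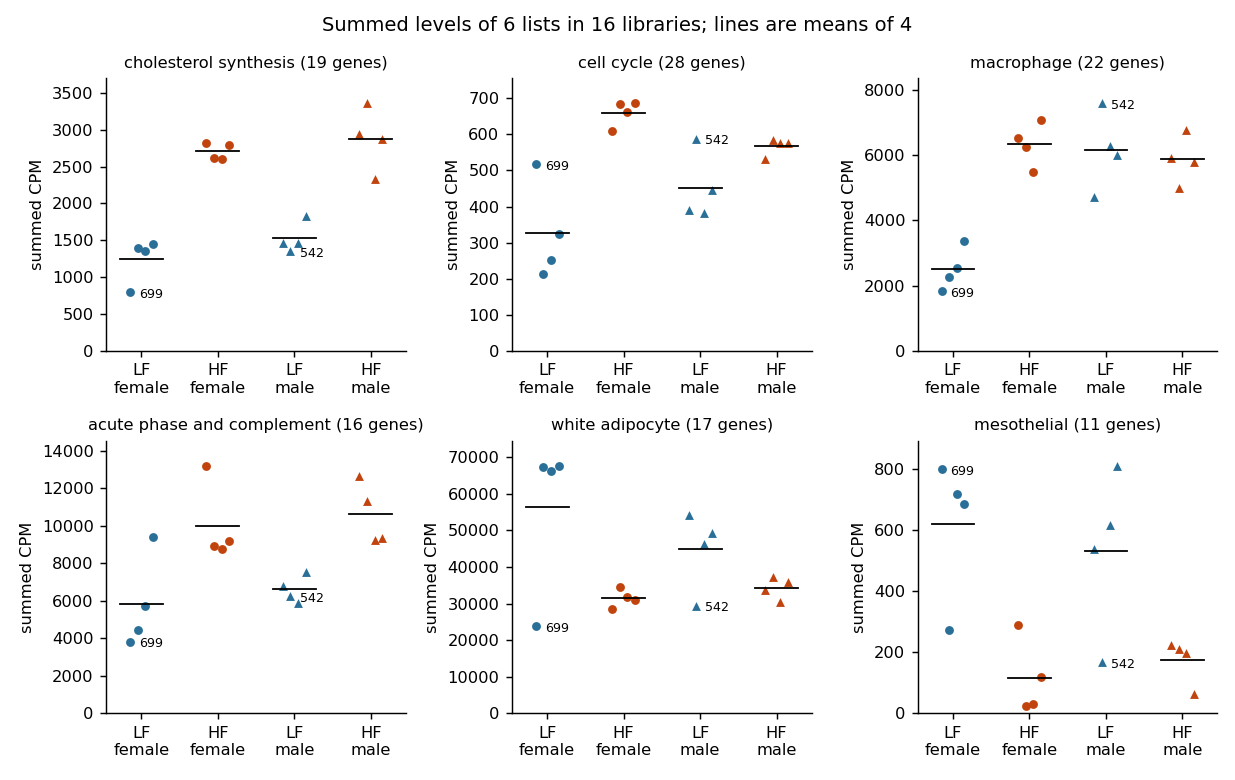
Summed CPM of 6 gene lists in each of the 16 libraries, by diet (LF low-fat, HF high-fat) and sex; lines are means of 4 libraries, and the low-fat libraries 699 and 542 are labelled. Cholesterol synthesis separates by diet in both sexes, the macrophage sum is low only in low-fat females (1829 to 3368 CPM), and the white adipocyte sum of 699 and 542 (23828 and 29426 CPM) lies below that of every other low-fat library.

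In the matrix list, 5 of 31 genes rose and 2 fell, where 9.67% of all genes were called higher and 9.96% lower. The list's median was 0.02, and 9 rose and 4 fell without 699 and 542. In females alone 5 rose and 0 fell (median 0.33), and in males alone 3 and 7 (median -0.20). The difference between the sexes was itself called for 1 of the 31. Col1a1, the main fibrillar collagen chain, was not called at -0.07 ± 0.22, nor was Col6a3, a collagen VI chain abundant in fat, at 0.27 ± 0.18. The stromelysin gene Mmp3 rose by 1.86 ± 0.22 (adjusted p = 8.1e-05), the cross-linking enzyme Lox by 1.28 ± 0.16 (adjusted p = 8.7e-05), periostin, Postn, by 1.00 ± 0.20 (adjusted p = 0.0024) and lumican, Lum, by 0.99 ± 0.18 (adjusted p = 0.0016). Lox lay at 146 to 215 CPM (median 184) on the high-fat and 43.3 to 107 CPM (median 79.3) on the low-fat diet, without overlap. Of 19 genes of fibroblasts and preadipocytes 2 rose and 3 fell (3 and 5 without 699 and 542), with Fap, a protease of activated fibroblasts, at 0.70 ± 0.10 (adjusted p = 3.7e-04), and Dpp4, a marker of early progenitors, at -1.25 ± 0.21 (adjusted p = 7.8e-04). Sfrp5, a Wnt inhibitor from adipocytes, was on the list of genes tied to fat expansion and fell by 1.86 ± 0.25 (adjusted p = 1.6e-04). On that list Mest and Npr3 were not called, at -0.01 ± 0.23 and -0.04 ± 0.16, and Trp53inp2, an autophagy gene, rose by 1.23 ± 0.17 (adjusted p = 1.8e-04) without overlap.

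Of 22 endothelial and pericyte genes 5 rose and 2 fell (4 and 3 without 699 and 542), with Pecam1, the gene of CD31, at 0.40 ± 0.07 (adjusted p = 0.0016) and Acta2, smooth muscle actin, at -1.34 ± 0.28 (adjusted p = 0.0036) and without overlap. Vegfa, the growth factor that guides vessels into fat, fell by 1.00 ± 0.12 (adjusted p = 8.6e-05), to 68.2 to 101 CPM (median 82.7) against 126 to 234 CPM (median 168), and no high-fat library reached the lowest low-fat library. Hif1a, the oxygen-regulated factor, rose by 0.68 ± 0.10 (adjusted p = 2.9e-04), also without overlap, at 181 to 253 CPM (median 216) against 114 to 179.5 CPM (median 130.4). Over the 19 genes of hypoxia and angiogenesis 4 rose and 4 fell, with a median of 0.09, and 5 and 6 without 699 and 542.

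Of 21 genes of the unfolded protein response 7 rose and 0 fell (8 and 0 without 699 and 542). In females alone 6 rose and 0 fell (median 0.26), and in males alone 0 and 0 (median 0.07). The difference between the sexes was itself called for 1 of the 21. Over both sexes Hspa5, the chaperone BiP, rose by 0.50 ± 0.13 (adjusted p = 0.012) and its partner Dnajb9 by 0.50 ± 0.09 (adjusted p = 0.0017). Ddit3, the factor CHOP, rose by 0.51 ± 0.12 (adjusted p = 0.0067). Of 26 genes against oxidative stress 5 rose and 2 fell with a median of 0.11, and 6 and 6 without 699 and 542 (median -0.05). In females alone 5 rose and 2 fell (median 0.11), and in males alone 0 and 0 (median 0.03). The difference between the sexes was called for 4 of the 26. Haem oxygenase Hmox1 was at 0.98 ± 0.21 (adjusted p = 0.0042) and the glutathione transferase Gstm1 at -0.75 ± 0.14 (adjusted p = 0.0014). In steroid, retinoid and xenobiotic metabolism 5 of 21 rose and 4 fell (5 and 5 without 699 and 542), and Hsd11b1, which regenerates glucocorticoid inside adipocytes, fell by 1.57 ± 0.29 (adjusted p = 0.0016). Of 17 clock genes (2 and 6 without 699 and 542) 1 rose, Arntl at 0.74 ± 0.22 (adjusted p = 0.025), and 4 fell, among them its repressor Nr1d1 at -0.99 ± 0.20 (adjusted p = 0.0032) and the output factor Hlf at -0.99 ± 0.23 (adjusted p = 0.0075). The call of Arntl was lost without the low-fat females 724 or 730 or the low-fat male 336, and the hour of dissection is not given in the sources used here.

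Among 11 T and NK cell genes 1 rose, a share near the 9.67% of all genes called higher. The riser was Il1rl1, the interleukin-33 receptor of regulatory T cells and innate lymphocytes, at 1.08 ± 0.15 (adjusted p = 2.1e-04) without overlap. Of the 23 genes listed, Trac was kept in the high-fat table only and the Cd3 and Cd8 genes in neither, so they could not be tested. B cell genes numbered 1 higher and 2 lower of 8, with the antibody heavy chain Ighm at -1.0 ± 0.29 (adjusted p = 0.025). Among 15 neutrophil, mast and dendritic cell genes 1 rose and 2 fell, where 9.67% of all genes were called higher and 9.96% lower. The falls were Siglech of plasmacytoid dendritic cells, -0.90 ± 0.18 (adjusted p = 0.0027), and Cd209a, -1.54 ± 0.23 (adjusted p = 3.0e-04). Muscle genes gave 0 rise and 1 fall of 5, Acta1 at -1.54 ± 0.42 (adjusted p = 0.017), and their summed level was 30.5 to 99.6 CPM in high-fat and 48.5 to 457 in low-fat libraries. Of 17 broadly expressed reference genes 1 rose and 1 fell, with a median of 0.01. The riser was Gusb, a lysosomal enzyme, at 0.63 ± 0.21 (adjusted p = 0.047), which was at -0.05 in males alone and whose call was lost when any of 11 of the 16 libraries was left out.

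**Figure D5:**
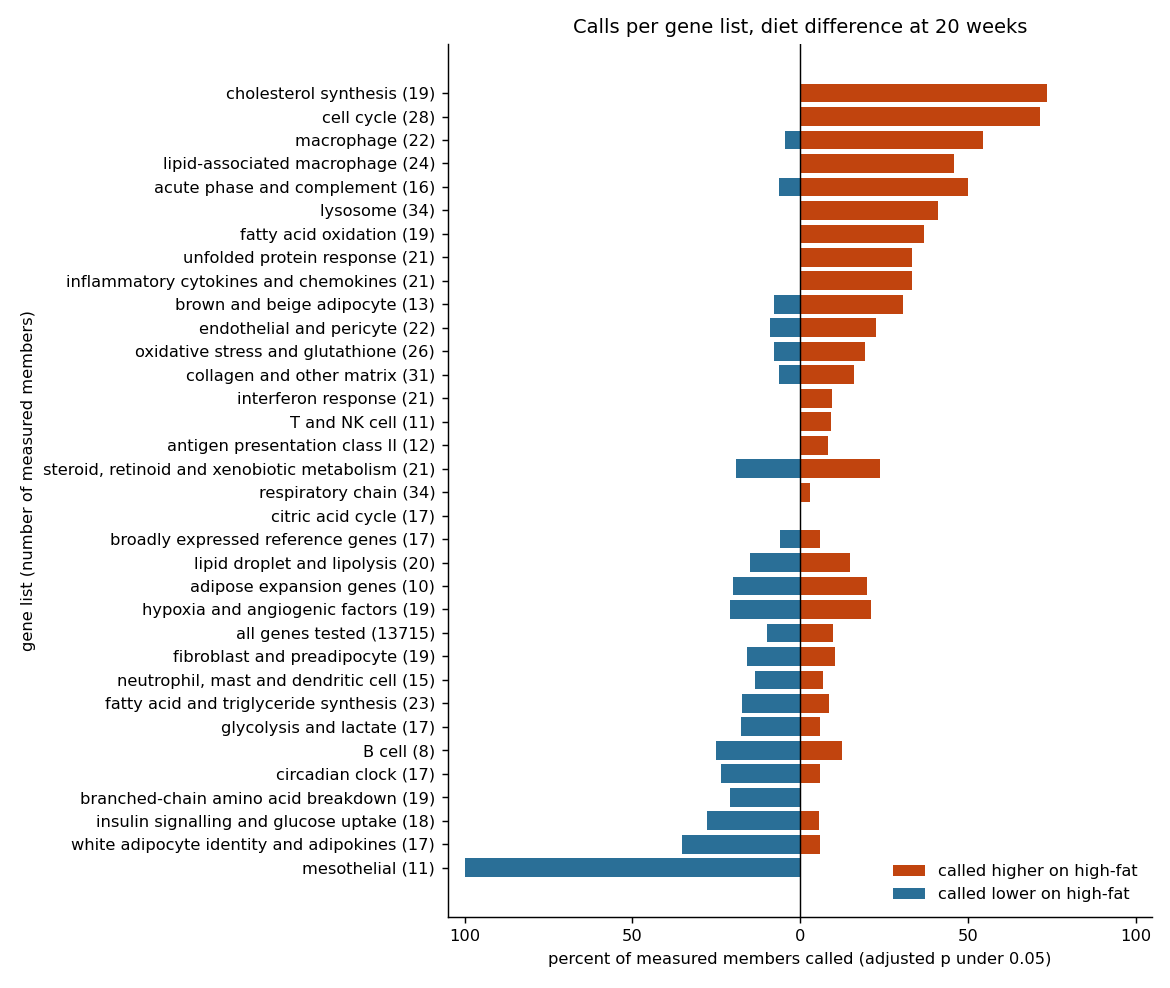
Percent of the measured members of each gene list called higher (right) or lower (left) on the high-fat diet at 20 weeks, for lists with 8 or more measured members, with the number measured in brackets and all 13715 genes as a row of its own. Cholesterol synthesis (14 of 19) and cell cycle (20 of 28) stand at one end and mesothelial markers (11 of 11 lower) at the other.

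The diet difference differed between the sexes for 453 genes (3.3%), and a scale factor per table cancels in this contrast. The female difference was the larger in size for 435 of them and the male for 18, and for 263 the differences of the sexes had opposite signs. Over the 2692 genes called for diet, 2671 (99.2%) had the same sign in both sexes, which a fit over both sexes favours, with a median size of 0.69 in females and 0.39 in males. The count of 453 was 758 without library 699, and 273 and 296 without the high-fat males 703 and 734. Besides the macrophage genes, the named genes with the largest negative male-minus-female values were Cntn1, a neural cell adhesion gene, at -4.53 ± 0.91 (adjusted p = 0.011), Alx4, a homeobox gene, at -4.03 ± 0.69 (adjusted p = 0.0056), Lcn2 at -3.06 ± 0.70 (adjusted p = 0.021) and Adam8, a metalloprotease of leukocytes, at -2.95 ± 0.43 (adjusted p = 0.0041). The call of Lcn2 was lost without the high-fat male 734. Alx4 lay at 6.95, 8.74, 12.4 and 26.2 CPM in high-fat females, against 0.389, 0.425, 1.64 and 2.20 in low-fat females, 1.49, 2.43, 3.07 and 3.16 in high-fat males and 2.47, 2.84, 3.97 and 4.82 in low-fat males. High-fat females were thus the group with high Alx4.

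As male minus female, 30 of the 453 values were positive. Klf14, an imprinted transcription factor tied to adipose metabolism, lay at 6.44, 13.5, 14.0 and 25.2 CPM in low-fat females, 1.49, 1.59, 2.08 and 2.44 in high-fat females, 3.92, 6.07, 7.30 and 7.57 in low-fat males and 3.60, 4.23, 5.80 and 6.10 in high-fat males. Its male-minus-female value was 2.45 ± 0.46 (adjusted p = 0.0082). Alox15, a lipoxygenase of peritoneal macrophages, gave 2.14 ± 0.49 (adjusted p = 0.02) and Smoc2, a matrix protein, 1.76 ± 0.37 (adjusted p = 0.014). Pdlim3, a muscle protein, had 177 CPM in library 699 alone, and its value of 3.90 was 2.90 without that library. The call of Pdlim3 was lost when any of 12 of the 16 libraries was left out.

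At 30 weeks, in other animals of the same 2 tables, 1815 genes were called for diet (13.2%) in a fit over all 32 SM/J white fat libraries. Of the 2692 genes called at 20 weeks, 2592 (96.3%) had the same sign at 30 weeks and 1178 were called there in that direction. Both ages come from the same pair of tables, so a difference made by the tables would recur in both. The median size of the difference of these called genes, signed by the direction at 20 weeks, was 0.56 at 20 weeks and 0.35 at 30 weeks. The genes were picked for their calls at 20 weeks, which favours a larger size there, so the medians do not measure a weaker effect at 30 weeks. No gene was called for a difference between the ages by limma (0%), and 876 had an unadjusted p under 0.05. Insig1 went from 1.97 to 1.19 ± 0.15 at 30 weeks (adjusted p = 1.0e-05), Itgad to 2.47 ± 0.54 (adjusted p = 0.0034), Car3 to -2.18 ± 0.30 (adjusted p = 2.8e-05) and Otop1 from 2.34 to 0.47 ± 0.26 (adjusted p = 0.22). At 30 weeks the list of cholesterol synthesis had 10 genes called higher and 1 lower, the macrophage list 9 and 1, the mesothelial list 0 and 7, and the fatty acid oxidation list 0 and 0.

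In LG/J mice of the same age, tissue and diets, 116 of 13383 genes present in all 4 tables were called for diet (0.867%). Of 2620 genes called in SM/J and present there, 2141 (81.7%) had the same sign in LG/J and 65 were called in it, with medians of 0.54 in SM/J and 0.16 in LG/J in that direction. These genes were picked for their calls in SM/J, which favours the larger size there. The difference between the strains was called for 163 genes (1.22%), 95 positive and 68 negative as SM/J minus LG/J. That count was 834 without SM/J libraries 699 and 542, 408 without 542 alone, 313 without 699 alone, 303 without the high-fat LG/J male 403 and 90 without the low-fat male 650, and was 100 to 106 without any of the LG/J females 623, 587 or 592 or the SM/J animals 862, 704, 734, 730, 336 or 731. The strains' diet effects come from 4 separate tables, whose making does not cancel in this contrast. Podnl1 had the largest positive value, 3.57 ± 0.38 (adjusted p = 4.4e-06), at 1.98 to 4.03 CPM in high-fat and 2.59 to 5.61 CPM in low-fat LG/J mice. Serpine2, a protease inhibitor, gave 2.03 ± 0.37 (adjusted p = 0.0054), Nrcam, a cell adhesion gene, 2.06 ± 0.45 (adjusted p = 0.018) and S100a8 2.07 ± 0.52 (adjusted p = 0.043). The calls of S100a8 and Fam84a were lost when any of 23 and any of 8 of the 32 libraries was left out. On the negative side were Mgl2 at -2.95 ± 0.44, Fam84a at -2.59 ± 0.61, Car3 at -2.40 ± 0.42 and the lectin gene Cd209b at -2.03 ± 0.46. Mgl2 lay at 19 to 57.6 CPM in high-fat and 16.1 to 58.5 CPM in low-fat LG/J mice, which overlap.

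The median of cholesterol synthesis was 0.66 in LG/J and 0.76 in SM/J over the 19 genes, 7 were called higher in LG/J, and 0 were called by limma for a difference between the strains, with 3 at an unadjusted p under 0.05. Insig1 rose by 1.32 ± 0.24 in LG/J (adjusted p = 0.0093), and its difference between the strains was 0.65 ± 0.34 (adjusted p = 0.36). The macrophage list had a median of -0.000155 in LG/J and 0.76 in SM/J, with 0 genes called by limma for the difference and 11 at an unadjusted p under 0.05, and Adgre1 stood at 0.28 ± 0.33 in LG/J. The mesothelial list had 0.28 and -2.44, with 0 genes called by limma for the difference and 10 at an unadjusted p under 0.05.

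Genes kept by the authors' filter in 1 table only could not be tested, 270 in the high-fat table and 252 in the low-fat table. The named genes with the highest medians among those of the high-fat table were Trac, the constant region of the T cell receptor alpha chain, with 91.4 to 409 normalised counts (median 223) in the 8 libraries, Sptlc3, a sphingolipid synthesis gene (median 129.6), and Hpx, the haem scavenger hemopexin (median 127). In the low-fat table they were Rnase2a (median 159), Mrgprg (median 135) and Miat (median 98.1). A gene's absence from a table says that it did not pass that table's filter, whose lowest kept mean was 16.5 normalised counts in the high-fat and 18.0 in the low-fat table. Sex-linked and mitochondrially encoded genes are not analysed here.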

How the data were processed

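RNA of reproductive white fat from single animals was sequenced from ribosomal RNA-depleted libraries, per the labels' protocols. The submitters' processing notes name STAR 2.6.0c, the build mm10 and edgeR. The authors deposited each diet, strain and tissue as a separate table of fractional normalised counts, a signal filtered and scaled within that table, from which whole reads could not be recovered. The depth in reads is therefore unknown.

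Both SM/J tables were joined over their 13715 shared genes and rescaled to CPM with TMM factors (trims of 30% and 5%). Values as log2(CPM + 0.1) were tested with limma 3.58.1 in R 4.3.3, with an intensity trend and sex as covariate. Tests were two-sided, with Benjamini-Hochberg adjustment. Interactions came from models with 1 mean per group. The scripts were tested on simulated data.

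Named genes were the 12 largest called rises and 12 largest called falls with a mean of at least 5 CPM, 1 direction over both sexes and no provisional symbol. To these were added the 4 members of each list with the smallest p, a set of well-known genes, members that complete a pathway, and the 4 largest values each way of each interaction. Members, lists and motifs were chosen with earlier results of these data known. The labels say that replicates are separate animals. Alternatives covered scaling, pseudocount, filter, covariate, variance model, sex and each library. Sex-linked and mitochondrially encoded genes are not analysed here. Some members counted in the lists are not reported here by name.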

Additional observations from a re-analysis of the deposited data

Results flagged for a closer look

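In groups of 4 libraries, 23 of 232 tested groups of values (9.91%) held a library set apart by Dixon's rule for 4 samples. In these its gap to the nearest other library, over the group's range, exceeded the critical value. Library 542 accounted for 7 of the 23 and library 699 for 6. About 1 in 20 groups of independent, normally distributed values would exceed it. The values here were unlogged CPM of list sums and of genes partly picked for their differences, all from the same libraries. An excess over chance was therefore not tested. Among the low-fat males, 542 was highest in Itgad (146 CPM, others 16.6 to 25.4), Slc5a7 (15.8 CPM, others 3.80 to 4.6), Myh15 (18.0 CPM, others 5.87 to 7.89), Olr1 (5.75 CPM, others 1.87 to 2.44) and S100a8 (7.93 CPM, others 1.83 to 2.6). It was lowest in Adipoq (1191 CPM, others 2875 to 3018) and Cgn (7.14 CPM, others 16.1 to 17.7).

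Among the low-fat females, 699 was lowest in Car3 (6781 CPM, others 19629 to 20663), Adipoq (1723 CPM, others 4269 to 4439), Pparg (83.5 CPM, others 208 to 216), the summed lipid-associated macrophage list (11579 CPM, others 24807 to 27451) and the summed cholesterol synthesis list (793 CPM, others 1359.7 to 1447). It was highest in Krt8, at 107 CPM, with the others at 7.37 to 18.9. The lipid-associated macrophage list shares Lpl with the white adipocyte list and Plin2 with the lipid droplet list, so its sum does not follow macrophages alone.

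Other libraries stood apart in single values. The low-fat female 761 was highest of its group in S100a8 (5.77 CPM, others 1.23 to 1.57) and in Adgre1 (118 CPM, others 61.1 to 69.6), and the low-fat male 731 was highest in Hmgcs1 (742 CPM, others 509 to 531). Of the high-fat females, 862 was highest in Olr1 (18.1 CPM, others 12.8 to 13.2) and 292 in Lcn2 (37.5 CPM, others 19.2 to 22.1). Of the high-fat males, 290 was highest in Podnl1 (45.5 CPM, others 14.1 to 19) and lowest in Mki67 (60.4 CPM, others 79.7 to 81.4) and in the summed cell cycle list (533 CPM, others 575 to 584). High-fat male 703 was highest in S100a8 (21.9 CPM, others 9.17 to 11.0), and 734 was lowest in the summed mesothelial list (64.2 CPM, others 197 to 223).

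The diet difference differed between the sexes, by limma's interaction test and as male minus female, for Pdlim3 (3.90), Klf14 (2.45), Alox15 (2.14), Smoc2 (1.76), Cntn1 (-4.53), Alx4 (-4.03), Lcn2 (-3.06) and Adam8 (-2.95). It differed between the strains by the same kind of test, as SM/J minus LG/J, for Podnl1 (3.57), S100a8 (2.07), Nrcam (2.06), Serpine2 (2.03), Mgl2 (-2.95), Fam84a (-2.59), Car3 (-2.40) and Cd209b (-2.03). These genes were picked as the largest called values in each direction, so their sizes describe the top of the list.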

How the results depend on the processing

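The count of 2692 genes called for diet stayed within 1.5 times under every scaling, pseudocount, filter, covariate and trend setting run, and was 1934 to 3404 when 1 library was left out in turn. It was 4787 (2366 higher, 2421 lower) with a robust fit and array weights, 667 (335 higher, 332 lower) in males alone and 4170 (2090 higher, 2080 lower) without libraries 699 and 542. In females alone 1850 were called, 1153 higher and 697 lower, so that 62.3% were higher, against 49.3% over both sexes. The cause of these shifts was not tested. Leaving out 1 library, the count of genes that differed by sex was 273 (without the high-fat male 703) to 758 (without 699), with 296 without the high-fat male 734, and by age 0 to 1 (without 542, or without the low-fat female 662 of 30 weeks). By strain it was 90 (without the low-fat male 650) to 408 (without 542), with 313 without 699 and 303 without the high-fat LG/J male 403. It was 100 to 106 without any of the LG/J females 623, 587 or 592, or the SM/J animals 862, 704, 734, 730, 336 or 731. Without 699 and 542 together, 2 genes differed by age and 834 by strain.

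Of 207 called genes among the 272 followed, 60 kept their direction and call in every setting. The call was lost for 121 in males alone, for 65 in females alone, for 40 when some single library was left out and for 18 under another scaling. In males alone 3 changed sign, Gusb at -0.048, Slc37a2 at -0.012 and Lgmn at -0.027. No paired analysis was possible because the replicate numbers name animals, and the diets share none. The depth in reads is unknown, so counting error could not be separated from the spread between animals.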
